A study of Mus musculus with 20 samples.

Results

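Atf4 and 9 genes of the integrated stress response, Atf5, Ddit3, Trib3, Asns, Psat1, Phgdh, Chac1, Sesn2 and Ppp1r15a, were followed in sorted mouse AgRP neurons by taking the rows with these symbols from the count table. They are 10 of its 23129 genes. All 10 were in the table, and 9 of them were among the 13237 genes that passed the filter on low counts and were tested. Phgdh did not pass it.

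The libraries came from hypothalamic neurons that make agouti-related peptide (AgRP) and drive feeding, sorted for the red reporter tdTomato at 1000 cells per sample from C57BL/6 mice aged 25 to 30 days. Wild-type mice carried the genotype AgRP-Cre/+ with Ai9/+, the Cre-dependent tdTomato reporter. Their conditional knockout (cKO) littermates carried the same 2 alleles with a floxed copy of the X-linked chromatin gene Phf6 (Phf6 flox/y), so that deletion was limited to cells with a history of AgRP-Cre. Fed mice were compared with mice that had only water after food was taken away at 5 pm on the previous day. Each of the 4 groups, wild-type fed, wild-type fasted, cKO fed and cKO fasted, had 5 libraries. The labels do not say whether a library held the cells of 1 mouse, so p-values describe the spread between these samples.

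The integrated stress response begins when a kinase such as PERK, GCN2, PKR or HRI phosphorylates the translation factor eIF2alpha. Most translation then slows, while the Atf4 mRNA is translated more efficiently, and the ATF4 protein binds composite C/EBP-ATF elements in genes for amino acid synthesis, transport, stress signalling and negative feedback. ATF4 is therefore regulated strongly at the level of protein, which RNA counts do not measure. In the hypothalamus this pathway is known as a sensor of amino acid shortage and endoplasmic reticulum stress.

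The element that defines many ATF4 targets was searched for in the RefSeq promoters of the genes, each 300 bases long, from 250 before to 50 after the start of transcription (GRCm38.p6). The search used the letters TGATGNAA on both strands, so that a match on the other strand reads TTNCATCA. All 10 genes had a promoter, and 3 of them held a match. These 3 windows are shown, 30 bases each, because they are the genes in which an ATF4-type element can be read directly. Capitals mark the matching letters, and each line is written in the orientation of the element.
Asns: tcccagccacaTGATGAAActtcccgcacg
Chac1: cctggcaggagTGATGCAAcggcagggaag
Trib3: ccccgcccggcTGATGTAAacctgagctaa

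The Asns window lies at chr6:7693214-7693243 on the minus strand, and its match runs from 23 to 16 bases before the RefSeq start, on the strand of the gene. The annotated first exon of GENCODE begins upstream of that point, so the match falls inside it. The Chac1 window lies at chr2:119351038-119351067 on the minus strand, with the match 193 to 186 bases before the start and opposite to the gene. The Trib3 window lies at chr2:152344028-152344057 on the plus strand, with the match 15 to 22 bases after the RefSeq start and opposite to the gene. In GENCODE the gene begins further downstream, at chr2:152344032, so by that annotation the match lies upstream of it. Among all genes with a RefSeq promoter, 1219 of 27025 (4.51%) had a match, and among 41 other genes listed here as ATF4 targets with a promoter 13 (31.71%) had one. A match is a description of the letters, and for the other 7 genes it says only that they are absent from this window. With all libraries on the TMM scale, none of these 3 genes rose on fasting in either genotype. Over all tested genes 29.6% rose in wild type and 26.0% in cKO, so 3 genes are too few to describe genes with the element. Trib3 had only 3 to 20 counts per library. Chac1 did pass in wild type from fasted replicates 3 to 5 alone (log2 0.53, edgeR adjusted p = 0.00936).

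Levels were compared between genes as CPM (counts scaled to each library's TMM-adjusted total, a normalization described further on) divided by exon length in kb. In wild-type fed neurons the order was led by Asns with 55.5 CPM per kb ± 3.78 (SD, n = 5), followed by Atf4 with 34.4 ± 1.17 and Ddit3 with 23.0 ± 1.63. The libraries of these 3 genes did not overlap. Ppp1r15a with 7.22 ± 1.07 and Chac1 with 7.03 ± 1.37 came next and overlapped, and Psat1 stood at 3.80 ± 0.446. Atf5 and Sesn2, with 1.17 ± 0.396 and 1.07 ± 0.284 CPM per kb, overlapped, as did Trib3 and Phgdh, with 0.465 ± 0.162 and 0.242 ± 0.187. On fasting, Atf4 came first, with 60.2 CPM per kb ± 4.30 in wild-type and 61.1 ± 6.09 in cKO neurons. Asns then overlapped with Ddit3 in wild-type fasted neurons and with Atf4 in cKO fasted neurons. Trib3 and Phgdh were at the bottom in all 4 groups.

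**Figure D1:**
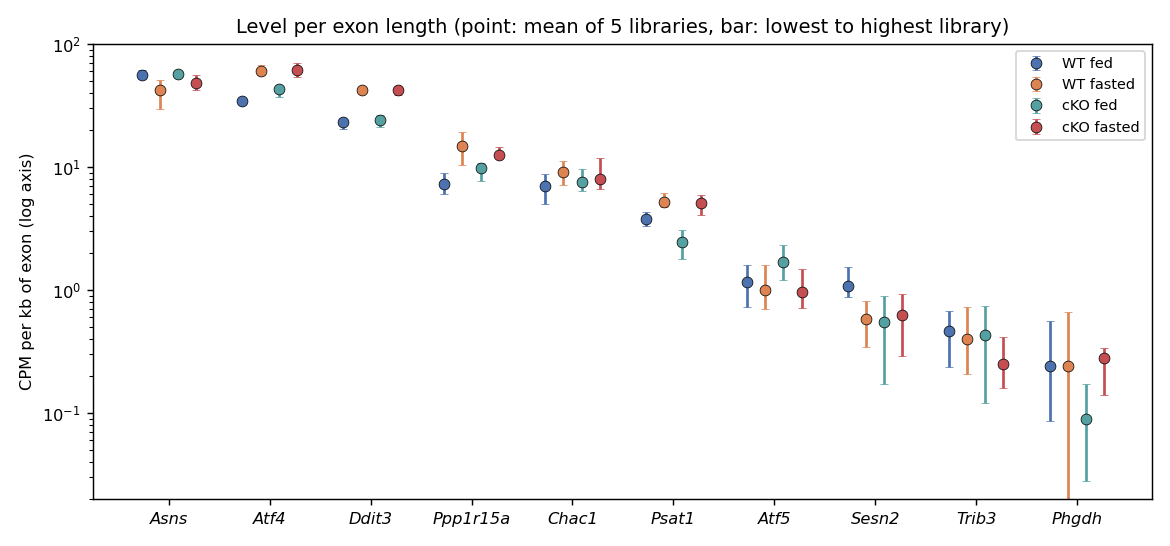
Level of each gene per kb of exon (y axis, CPM per kb, log axis) in the 4 groups, with points for the mean of 5 libraries and bars from the lowest to the highest library. Asns, Atf4 and Ddit3 lead in every group, Trib3 and Phgdh are lowest, and the bar of Phgdh in wild-type fasted neurons runs off the axis because 1 library has no count.

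Several facts of the whole series touch these genes. Depth ran from 8494499 to 13573524 counts per library. Phf6 itself averaged 276.4 CPM in wild-type fed, 128.2 in wild-type fasted, 70.7 in cKO fed and 61.2 in cKO fasted neurons. Which exons are floxed is not used here, so a remaining level does not measure the deletion. All 8 markers of AgRP neurons were detected in every group. Their summed level in fasted wild-type neurons was 84667 and 83784 CPM in replicates 1 and 2 but 59266 to 60741 CPM in replicates 3 to 5. In fasted cKO neurons it was 62467 and 69008 against 50640 to 54754 CPM. Npy and Agrp, which both rose on fasting, held most of these sums. They averaged 53993 and 14929 CPM in fasted wild-type and 45330 and 11310 CPM in fasted cKO neurons. The labels give no batch for these libraries, so each fasting result below is also given from replicates 3 to 5 alone where it differs in its call or by over 1.5 times. Normalization by the trimmed mean of M values (TMM) gave factors of 1.05 to 1.11 in fed and 0.902 to 0.95 in fasted libraries. Scaling by library totals alone moved the median log2 fold change of all tested genes from -0.03 to -0.29 for fasting in wild type and from -0.03 to -0.23 in cKO. The split of genes that rose and fell then went from 3920 and 4138 to 2458 and 6229 in wild type, and from 3445 and 3579 to 2203 and 5350 in cKO. Changes are therefore stated relative to the TMM scale. The same scaling gave 617 genes that rose and 683 that fell in cKO against wild type when fed, where TMM gave 777 and 504. For the fasted genotypes it gave 1877 and 915 where TMM gave 1517 and 1170, and for the interaction 1637 and 798 where TMM gave 1174 and 1117.

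Markers of other cells were present and not equal between groups. The summed level of 8 astrocyte markers ranged from 9.92 to 17 CPM in wild-type fed, 34.3 to 64.2 in wild-type fasted, 30.1 to 61.4 in cKO fed and 42.4 to 97.1 in cKO fasted neurons. Outside wild-type fed neurons most of this sum was 1 gene, Agt (angiotensinogen). In these 4 groups Agt ranged from 3.5 to 7.71, 24.8 to 40.8, 25.7 to 54.7 and 33.9 to 86.9 CPM. Its median in wild-type fed neurons was 5.24 CPM, beside 6.07 for the other 7 markers together. The other 7 markers together ranged from 5.54 to 13.5, 5.97 to 23.7, 4.45 to 7.7 and 5.79 to 14.6 CPM, with overlap between all groups. Aqp4 was at 0 in all cKO fed libraries. Astrocytes are rich in serine synthesis enzymes, to which Psat1 and Phgdh belong. The summed level of 15 markers of Pomc and other hypothalamic neurons was higher than that of the glial lists. It ranged from 655 to 935 CPM in wild-type fed, 760 to 1293 in wild-type fasted, 454 to 686 in cKO fed and 953 to 1827 in cKO fasted neurons, and Sst and Cartpt held most of it. Pomc averaged 48.7 ± 10.2 CPM in cKO fed and 209.9 ± 179.6 in cKO fasted neurons (log2 2.11 ± 0.44, edgeR adjusted p = 0.000217), and Ghrh, at or near 0 in the other groups, averaged 15.5 ± 18.8 CPM in cKO fasted neurons. The sums of 8 oligodendrocyte markers were 82.6 to 104 CPM in fed and 49.9 to 73.7 CPM in fasted libraries. Those of 8 tanycyte and ependymal markers were 38.6 to 74.5, those of 8 microglial markers 24.8 to 42.2 and those of 11 vascular markers 1.58 to 12.6 CPM over all groups. The part of these cells in the values below was not tested. In bulk samples of this kind fewer cells of a type and less RNA per cell cannot be told apart.

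The first comparison asked which genes of the response changed with an overnight fast in wild-type neurons. Of the 9 tested genes 4 rose (Atf4, Ddit3, Psat1 and Ppp1r15a), 2 fell (Asns and Sesn2), and Atf5, Trib3 and Chac1 did not pass the test. Over all tested genes 29.6% rose and 31.3% fell. The median log2 fold change of the 9 genes was 0.36, beside -0.03 over all tested genes.

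Atf4 encodes the transcription factor at the centre of the pathway and lies at chr15:80255184-80257541 on the plus strand. Its 5 wild-type fed libraries had 79.3, 80.3, 85.0, 78.2 and 82.8 CPM, and the 5 fasted libraries had 134.7, 132.3, 158.0, 144.1 and 140.8 CPM. Every fasted library lay above every fed one. The log2 fold change was 0.81 ± 0.07 (SE), a 1.75-fold rise with an edgeR adjusted p of 8.07e-11. In cKO neurons Atf4 had 107.3, 103.9, 104.5, 88.1 and 102.3 CPM when fed and 148.9, 163.9, 127.1, 146.6 and 133.5 CPM when fasted. These groups did not overlap either, and the rise was 1.42-fold, a log2 fold change of 0.51 ± 0.07 (edgeR adjusted p = 5.55e-07).

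Ddit3 encodes CHOP, a transcription factor induced downstream of ATF4 in prolonged stress (chr10:127290774-127296288, plus strand). Its libraries had 39.4, 39.8, 34.8, 42.4 and 40.6 CPM in wild-type fed and 69.3, 73.4, 74.4, 74.5 and 72.4 CPM in wild-type fasted neurons. The cKO libraries had 45.5, 36.4, 43.9, 36.1 and 43.0 CPM when fed and 66.5, 76.3, 75.9, 69.7 and 71.8 CPM when fasted. In both genotypes the fed and fasted libraries were apart, and the genotypes overlapped within each feeding state. The rise was 1.85-fold in wild type (log2 0.89 ± 0.08, edgeR adjusted p = 6.4e-11) and 1.76-fold in cKO (log2 0.81 ± 0.08, adjusted p = 6.63e-10). Ddit3 shares 4.7% of its exon bases with Mars, a methionyl-tRNA synthetase gene on the opposite strand that fell, and with an antisense model. The library kits do not mark strand, so reads in that stretch cannot be assigned to either gene.

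Atf5, a relative of ATF4 that is also translated under stress (chr7:44812256-44816658, minus strand), was present at a much lower level. It ranged from 1.45 to 3.19 CPM in wild-type fed and from 1.40 to 3.20 CPM in wild-type fasted neurons, and these ranges overlapped almost fully. In cKO it ranged from 2.38 to 4.65 CPM when fed and from 1.43 to 2.95 CPM when fasted, and here it fell 1.74-fold (log2 -0.80 ± 0.32, edgeR adjusted p = 0.0353) although the groups overlapped. The call was lost in 5 of 10 fits that left out 1 library of the comparison, with adjusted p from 0.0141 to 0.107, and from replicates 3 to 5 alone the log2 fold change was -0.77 (adjusted p = 0.0809). It was also lost from fasted replicates 1 and 2 alone (-0.83, adjusted p = 0.0982) and with corrections for GC content and length (-0.65, adjusted p = 0.084). These libraries were cKO fed replicates 1 and 5 and cKO fasted replicates 2, 3 and 5. Each library held 12 to 67 counts of Atf5. It shares 4.1% of its exon bases with Nup62 and Il4i1 on the opposite strand, where reads cannot be assigned to a gene either.

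Among the feedback regulators, Ppp1r15a had the greatest fold rise of the 9 genes in wild type. It encodes GADD34, the subunit that directs a phosphatase to eIF2alpha and so ends the response (chr7:45522916-45526268, minus strand). Its wild-type fed libraries had 26.2, 20.3, 21.6, 20.3 and 17.6 CPM and the fasted ones 35.9, 30.5, 46.7, 56.2 and 50.1 CPM. Fasted libraries were all higher, and replicates 1 and 2 were the lowest of them. The rise was 2.07-fold (log2 1.05 ± 0.13, edgeR adjusted p = 9.69e-08). From fasted replicates 3 to 5 alone the log2 fold change was 1.27 (adjusted p = 2.61e-12), and from replicates 1 and 2 alone 0.63 (adjusted p = 0.000213). In cKO the libraries had 29.5, 30.02, 29.4, 31.7 and 22.7 CPM when fed and 35.0, 35.5, 34.7, 37.7 and 42.4 CPM when fasted. This rise was 1.29-fold (log2 0.37 ± 0.13, edgeR adjusted p = 0.0193). It no longer passed without cKO fed replicate 5 (log2 0.30, adjusted p = 0.0697), without cKO fasted replicate 5 (log2 0.32, adjusted p = 0.0589), with library totals alone (log2 0.18, adjusted p = 0.266) or from fasted replicates 1 and 2 alone (log2 0.30, adjusted p = 0.0648).

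Sesn2, a sestrin that restrains mTORC1 when leucine is scarce (chr4:132492032-132510501, minus strand), went the other way in wild type. Its fed libraries had 3.04, 3.88, 3.07, 5.37 and 3.21 CPM and its fasted libraries 1.87, 2.84, 1.19, 1.35 and 2.76 CPM, with no overlap. The fall was 1.86-fold (log2 -0.89 ± 0.36, edgeR adjusted p = 0.034). The call was lost in 5 of 10 fits that left out 1 library (wild-type fed 2 and 4, wild-type fasted 1, 3 and 4), with log2 fold changes from -1.05 to -0.73. It was also lost with corrections for GC content and length (-0.60, adjusted p = 0.157) and from fasted replicates 1 and 2 alone (-0.68, adjusted p = 0.209). In cKO, Sesn2 ranged from 0.597 to 3.12 CPM when fed and from 1.01 to 3.22 CPM when fasted, and the log2 fold change was 0.17 ± 0.37 (edgeR adjusted p = 0.721). Trib3, a pseudokinase that inhibits ATF4 and AKT (chr2:152337422-152344032, minus strand), was near the limit of detection, with 3 to 20 counts per library. It averaged 0.988 CPM in wild-type fed, 0.846 in wild-type fasted, 0.912 in cKO fed and 0.533 in cKO fasted neurons. Its log2 fold changes on fasting were -0.24 (95% interval -1.18 to 0.70) and -0.77 (-1.78 to 0.24), and neither passed.

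Asns encodes asparagine synthetase, a textbook ATF4 target whose element is printed above (chr6:7675169-7693254, minus strand). Its wild-type fed libraries had 149.8, 140.7, 144.7, 157.6 and 166.5 CPM, and the fasted ones 88.3, 80.5, 135.7, 132.8 and 139.4 CPM. All fasted libraries were below all fed ones, and replicates 1 and 2 were far below the other 3. The fall was 1.31-fold (log2 -0.39 ± 0.11, edgeR adjusted p = 0.00277), but it was -0.16 from replicates 3 to 5 alone (adjusted p = 0.0202) and -0.86 from replicates 1 and 2 alone (adjusted p = 1.22e-12). In cKO the libraries had 153.3, 156.9, 163.0, 150.2 and 158.7 CPM when fed and 116.5, 118.4, 142.8, 130.3 and 151.8 CPM when fasted, and the highest fasted library overlapped the lowest fed one. The log2 fold change of -0.25 ± 0.11 did not pass (edgeR adjusted p = 0.0597). It passed with upper-quartile normalization, library totals, no filter, corrections for GC content and length, or a fit on the 2 groups alone, with values from -0.44 to -0.24. It was -0.14 from replicates 3 to 5 alone (adjusted p = 0.042) and -0.41 from replicates 1 and 2 alone (adjusted p = 4.32e-06). In wild type, Atf4 RNA thus rose on fasting while Asns RNA fell.

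Psat1 encodes phosphoserine aminotransferase, the second enzyme of serine synthesis (chr19:15904678-15947337, minus strand), and it rose in both genotypes. The wild-type libraries had 16.5, 14.1, 17.6, 18.3 and 14.3 CPM when fed and 20.2, 26.0, 19.96, 22.1 and 22.8 CPM when fasted. The cKO libraries had 9.77, 12.4, 12.96, 7.59 and 9.92 CPM when fed and 25.1, 19.98, 17.4, 20.7 and 25.3 CPM when fasted. Fed and fasted libraries did not overlap in either genotype, and the cKO fed libraries were the lowest of all 20. The rise was 1.37-fold in wild type (log2 0.46 ± 0.14, edgeR adjusted p = 0.00506) and 2.05-fold in cKO (log2 1.04 ± 0.14, adjusted p = 4.56e-07). With library totals alone the wild-type change was 0.19 (adjusted p = 0.22) and the cKO change 0.85 (adjusted p = 1.11e-05). The 7 astrocyte markers other than Agt had medians of 6.07 CPM in wild-type fed, 9.44 in wild-type fasted, 6.1 in cKO fed and 8.73 in cKO fasted neurons, and their part in the Psat1 values was not tested.

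Phgdh, the first enzyme of the same serine pathway (chr3:98313170-98339990, minus strand), had 0 to 18 counts per library. It ranged from 0.215 to 1.40 CPM in wild-type fed, from 0 to 1.64 in wild-type fasted, from 0.0693 to 0.426 in cKO fed and from 0.348 to 0.836 in cKO fasted neurons. The limit that no count leaves (3 counts) was 0.207 to 0.387 CPM across libraries and covers counting error only. A difference was not detectable at this depth: without the filter, the edgeR log2 fold change in cKO was 1.57 (adjusted p = 0.0902) and in wild type -0.02 (adjusted p = 1). Chac1 encodes an enzyme that degrades glutathione (chr2:119351229-119354381, plus strand). Its wild-type libraries had 8.21, 14.3, 11.1, 11.2 and 12.7 CPM when fed and 12.3, 11.8, 14.3, 18.5 and 17.0 CPM when fasted, and the groups overlapped. The log2 fold change of 0.36 ± 0.17 did not pass (edgeR adjusted p = 0.0735), although from fasted replicates 3 to 5 alone it was 0.53 (adjusted p = 0.00936), and it also passed without wild-type fed replicate 2 or wild-type fasted replicate 1 or 2. In cKO, Chac1 had 15.6, 13.3, 10.5, 10.8 and 11.3 CPM when fed and 11.3, 11.4, 10.9, 11.9 and 19.5 CPM when fasted. Its log2 fold change there was 0.08 ± 0.18 (edgeR adjusted p = 0.731).

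**Figure D2:**
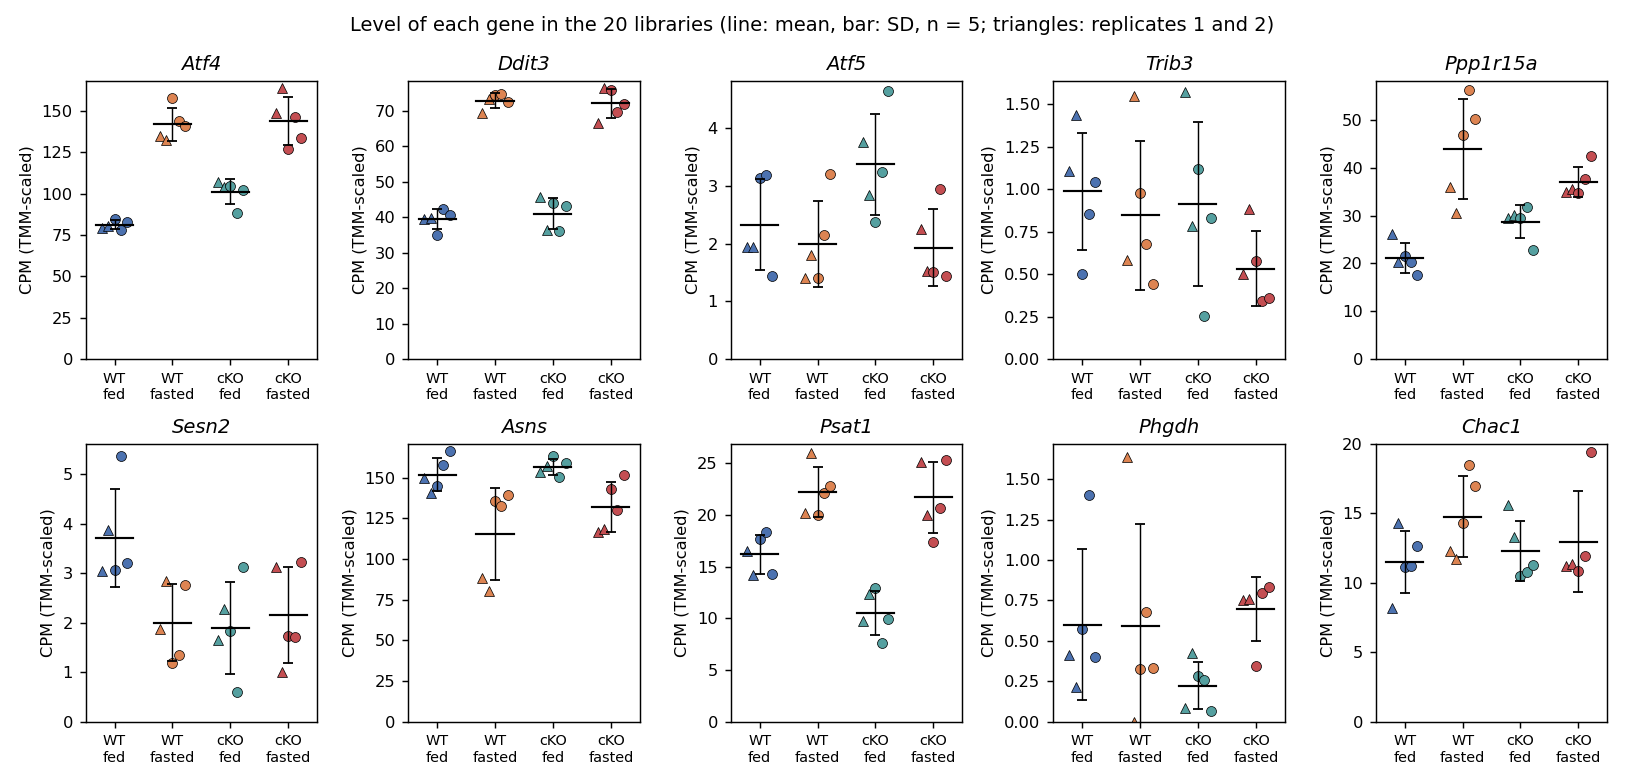
CPM of each of the 10 genes (y axis, TMM-scaled, from 0) in every library of the 4 groups, with the mean as a line, the SD as a bar (n = 5) and triangles for replicates 1 and 2. Fasted libraries of Atf4, Ddit3 and Psat1 lie above the fed ones in both genotypes, Psat1 is lowest in cKO fed neurons, and fasted replicates 1 and 2 lie lowest for Asns.

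In cKO neurons, fasting raised 4 of the 9 tested genes (Atf4, Ddit3, Psat1 and Ppp1r15a), and 1, Atf5, fell. Over all tested genes 26.0% rose and 27.0% fell in this comparison. The median log2 fold change of the 9 genes was 0.17, beside -0.03 over all tested genes. From fasted replicates 3 to 5 alone, 5 of the 9 rose and 2 fell in wild type, beside 3963 and 4258 of 13581 tested genes. In cKO 4 rose and 1 fell in that fit, beside 3351 and 3452 of the tested genes. The gene that fell there was Asns (log2 -0.14, edgeR adjusted p = 0.042) and not Atf5 (-0.77, adjusted p = 0.0809).

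The effect of the Phf6 deletion was then compared within each feeding state. In fed neurons 2 of the 9 genes were higher in cKO (Atf4 and Ppp1r15a) and 1 was lower (Psat1), beside 5.87% of all tested genes that were higher and 3.81% that were lower. Atf4 was 1.25-fold higher (log2 0.32 ± 0.07, edgeR adjusted p = 0.003), and each cKO library, from 88.1 to 107.3 CPM, was above each wild-type library, from 78.2 to 85.0 CPM. Psat1 was 1.53-fold lower (log2 -0.62 ± 0.14, adjusted p = 0.004), with 7.59 to 12.96 CPM in cKO and 14.1 to 18.3 CPM in wild type. Ppp1r15a was 1.35-fold higher (log2 0.43 ± 0.13, adjusted p = 0.0353), but its groups overlapped, from 22.7 to 31.7 CPM in cKO and from 17.6 to 26.2 CPM in wild type. That call was lost in 8 of 10 fits that left out 1 library, all but those without wild-type fed replicate 1 or cKO fed replicate 5, with adjusted p from 0.0179 to 0.106. With library totals alone its adjusted p was 0.0611. Sesn2 had 0.597 to 3.12 CPM in cKO and 3.04 to 5.37 CPM in wild type, and its log2 difference of -0.95 ± 0.35 did not pass (edgeR adjusted p = 0.0842). It passed in a fit on the 2 fed groups alone (log2 -0.95, adjusted p = 0.0188) and without cKO fed replicate 5 (log2 -1.21, adjusted p = 0.0449). For Ddit3 the log2 difference was 0.06, with a 95% interval from -0.10 to 0.21, and for Asns it was 0.04, from -0.18 to 0.26.

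In fasted neurons 0 of the 9 genes were higher and 0 lower in cKO by edgeR, with 0 at an unadjusted p under 0.05 and 0 by DESeq2. Over all tested genes 11.5% were higher and 8.84% lower. The log2 difference of Atf4 was 0.02 (95% interval -0.12 to 0.16), that of Ddit3 was -0.02 (-0.17 to 0.14) and that of Psat1 was -0.03 (-0.31 to 0.25). Ppp1r15a differed by -0.25 (-0.52 to 0.02) and Asns by 0.19 (-0.03 to 0.42). Both depended on the libraries used. From fasted replicates 3 to 5 alone, Ppp1r15a was lower in cKO (log2 -0.42, adjusted p = 0.0116), and from replicates 1 and 2 alone Asns was higher (log2 0.49, adjusted p = 0.000155). Without wild-type fasted replicate 2 Ppp1r15a also passed, with log2 -0.35 (adjusted p = 0.0366).

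The interaction term tested whether the fasting response itself differed between genotypes. It passed for 3 of the 9 genes. The response of Psat1 was greater in cKO by 0.58 ± 0.20 on the log2 scale (edgeR adjusted p = 0.0384), that of Atf4 was smaller by a log2 difference of -0.30 ± 0.10 (adjusted p = 0.0347), and that of Ppp1r15a was smaller by -0.68 ± 0.19 (adjusted p = 0.0113). Over all tested genes 8.87% had a positive and 8.44% a negative interaction. The median of the 9 genes was -0.28, beside -0.03 over all tested genes. For Ddit3 the interaction was -0.07 (95% interval -0.29 to 0.15). The call for Ppp1r15a passed in each of 20 fits that left out 1 library, with log2 values from -0.78 to -0.57. The call for Atf4 was lost in 11 of these 20 fits (adjusted p from 0.0114 to 0.081) and the call for Psat1 in 10 (0.0199 to 0.0773). For Atf4 these were the fits without wild-type fed 1, 2 or 4, cKO fed 1, 2, 3 or 5, wild-type fasted 3 or 5, or cKO fasted 3 or 5. For Psat1 they were those without wild-type fed 1, 3 or 4, cKO fed 1, 4 or 5, wild-type fasted 3 or 4, or cKO fasted 1 or 5. The Atf4 interaction was also lost with library totals (adjusted p = 0.0999), corrections for GC content and length (0.057) and no filter (0.0505), and that of Psat1 with upper-quartile normalization (0.0521). From fasted replicates 3 to 5 alone the interaction was -0.44 for Atf4 (adjusted p = 0.000337), -0.85 for Ppp1r15a (0.000126) and 0.58 for Psat1 (0.0394). From replicates 1 and 2 alone none of these 3 passed (adjusted p = 0.684, 0.279 and 0.0934), while Asns did, with a log2 difference of 0.45 (adjusted p = 0.00124). The fasting comparisons and the genotype comparisons share libraries, so their values are given side by side and are not independent.

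**Figure D3:**
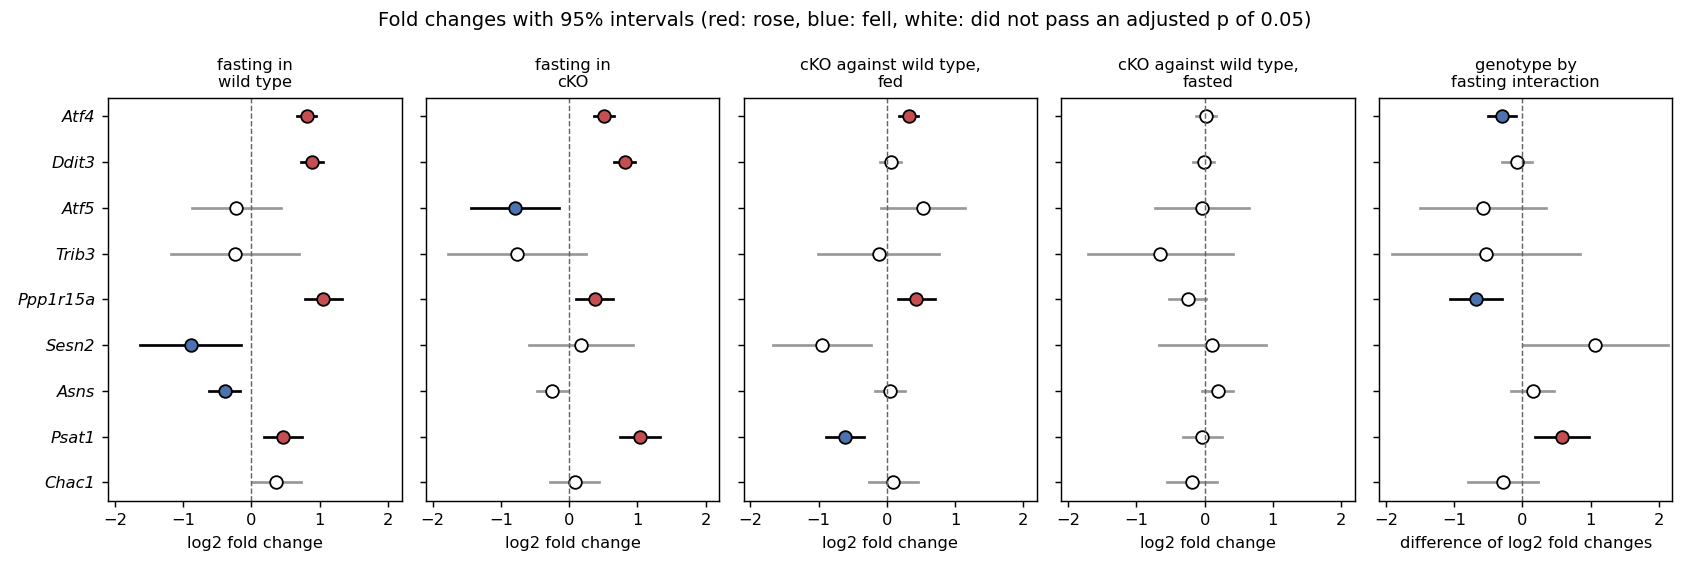
Log2 fold changes of the 9 tested genes (x axis) with 95% intervals in the 4 comparisons, and in the last panel the difference of log2 fold changes between genotypes. Red points rose or were higher, blue points fell or were lower, and white points did not pass; for cKO against wild type all 9 points are white when fasted, while Atf4, Ppp1r15a and Psat1 are filled when fed.

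The genes around Atf4 were taken from lists of the pathway. Among the 4 eIF2alpha kinases, fasting in wild type raised Eif2ak4, which encodes the amino acid sensor GCN2, from 20.9 to 30.3 CPM (log2 0.54 ± 0.12, edgeR adjusted p = 0.000492), and lowered Eif2ak1, the haem-regulated HRI, from 45.8 to 27.7 CPM (log2 -0.72 ± 0.11, adjusted p = 3.35e-06). Eif2ak3, the endoplasmic reticulum kinase PERK, had a log2 fold change of 0.47 ± 0.25 (adjusted p = 0.109), and Eif2ak2, the RNA-sensing PKR, 0.17 ± 0.13 (adjusted p = 0.258). From fasted replicates 3 to 5 alone Eif2ak3 also passed (log2 0.69, adjusted p = 0.00809). With library totals alone Eif2ak4 no longer passed (log2 0.27, adjusted p = 0.0572), and the sign of the Eif2ak2 value turned to -0.09. In cKO 3 of the 4 rose and Eif2ak1 fell, beside 26.0% of all tested genes that rose and 27.0% that fell. Scaled by library totals 0 of the 4 rose there, and from replicates 3 to 5 alone 1 did. Leaving out 1 library ended the calls of Eif2ak2 and Eif2ak4 in 6 of 10 fits each and that of Eif2ak3 in 3 (cKO fed 1, cKO fasted 3 and 5). No kinase differed between genotypes when fed or fasted or in the interaction by edgeR or DESeq2. At an unadjusted p under 0.05 the fed comparison had 1 higher and 1 lower, the fasted comparison 0 and the interaction 1 higher.

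Of 16 genes for eIF2, its exchange factor eIF2B, the eIF2alpha phosphatase and related initiation factors, 8 rose (50%) and 3 fell (18.8%) in wild type, and 9 rose and 2 fell in cKO. With library totals alone the wild-type counts were 7 and 7 and the list median turned from 0.19 to -0.07. Eif2s2, the beta subunit of eIF2, rose from 91.4 ± 2.66 to 176.0 ± 22.6 CPM in wild type (log2 0.94 ± 0.07, edgeR adjusted p = 6.62e-12), and Denr, which helps ribosomes reinitiate, rose from 175.7 ± 6.76 to 270.2 ± 6.06 CPM (log2 0.62 ± 0.05, adjusted p = 8.61e-12). Eif2b1, a subunit of eIF2B, and Eif2a, an alternative initiation factor, rose by log2 0.57 and 0.56. In fed neurons 1 gene of this list, Ppp1cc, was lower in cKO (log2 -0.24, adjusted p = 0.0159, and 0.0528 without cKO fed replicate 3), and the interaction passed for Eif2s1, the eIF2alpha subunit itself (1.01 ± 0.15, adjusted p = 2.49e-05), Eif2b5 (0.50, adjusted p = 0.00963) and Eif2a (-0.26, adjusted p = 0.0485). The Eif2a call was lost in 17 of 20 fits that left out 1 library, with no filter (adjusted p = 0.0883), with library totals (0.171) and from fasted replicates 1 and 2 alone (0.436). In fasted neurons 3 of the 16 genes were higher in cKO (18.8%) and 1 was lower (6.25%), beside 11.5% and 8.84% of all tested genes. Higher were Eif2s1 (log2 0.71, edgeR adjusted p = 3.35e-05), Mcts1 (0.39, 0.00427) and Eif2b5 (0.28, 0.0439). Fits that left out 1 library are not given for these. Eif2a was lower by a log2 difference of -0.20 (adjusted p = 0.0292). That call was lost in 4 of 10 fits that left out 1 library, with no filter (0.0534) and with library totals (0.0896). It was also lost in a fit on the fasted groups alone (0.116) and from replicates 1 and 2 alone (0.65). Eif2s1 averaged 178.3 CPM in wild-type fed, 116.6 in wild-type fasted, 145.5 in cKO fed and 191.0 in cKO fasted neurons.

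Of 10 tested bZIP partners and other stress transcription factors, 4 rose (40%) and 3 fell (30%) in wild type. Over all tested genes 29.6% rose and 31.3% fell there. In cKO 6 rose (60%) and 2 fell (20%), beside 26.0% and 27.0%. The list median in wild type was 0.25 and turned to -0.01 with library totals alone. Creb3, a membrane-bound bZIP factor, rose from 200.4 ± 6.01 to 339.3 ± 19.5 CPM in wild type (log2 0.76 ± 0.05, edgeR adjusted p = 5.09e-13). Cebpd, a C/EBP factor, rose from 1.16 ± 0.51 to 7.58 ± 3.35 CPM (2.68 ± 0.38), and Nfe2l1, a regulator of proteasome genes, fell from 59.1 ± 6.61 to 36.4 ± 3.57 CPM (-0.70 ± 0.08). Cebpb, a C/EBP factor that can pair with ATF4, rose from 11.5 ± 1.06 to 37.1 ± 5.38 CPM in wild type (log2 1.68 ± 0.12, edgeR adjusted p = 7.14e-13). It was also higher in cKO than in wild type when fed, at 21.3 ± 3.16 CPM (log2 0.89 ± 0.12, adjusted p = 3.85e-06), and its fasting response was smaller in cKO (interaction -0.74 ± 0.16, adjusted p = 0.0016). Atf3, a stress-induced factor of the same class, averaged 5.95 ± 2.09 CPM in wild-type fed, 3.63 ± 1.10 in wild-type fasted, 9.33 ± 3.83 in cKO fed and 21.5 ± 7.71 in cKO fasted neurons. In fasted neurons it was higher in cKO by 2.57 ± 0.30 on the log2 scale (adjusted p = 1.13e-06), and the interaction was 1.91 ± 0.41 (adjusted p = 0.0015). Cebpg, a C/EBP partner of ATF4, was also higher in cKO when fasted (log2 0.43, adjusted p = 0.0278) and had an interaction of 0.57 (adjusted p = 0.0427). These calls were lost in 5 of 10 and 13 of 20 fits that left out 1 library and from fasted replicates 1 and 2 alone (adjusted p = 0.347 and 0.164). The first was also lost in a fit on the fasted groups alone (0.119) and the second with upper-quartile normalization (0.0563).

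Other genes listed here as ATF4 targets did not move as a block. The list was not limited to established targets and also held Trib1, Trib2, Sesn1 and Sesn3, relatives of Trib3 and Sesn2. Of its 53 genes 47 were tested, and in wild type 15 rose (31.9%) and 20 fell (42.6%), beside 29.6% and 31.3% of all tested genes. In cKO 13 rose (27.7%) and 13 fell (27.7%), beside 26.0% and 27.0%. The median log2 fold change was 0.04 in wild type and 0.08 in cKO, and with library totals alone it turned to -0.22 and -0.12. From replicates 3 to 5 alone 16 rose and 20 fell on fasting of wild-type mice, and 13 rose and 12 fell on fasting of cKO mice. The shares that rose were thus near the background in both genotypes.

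Among the target lists the amino acid transporters had the highest median in wild type. There 5 of 9 rose (55.6%) and 2 fell (22.2%), beside 29.6% and 31.3% of all tested genes. The list median was 0.77 (0.51 with library totals alone). In cKO 3 rose (33.3%) and 1 fell (11.1%), beside 26.0% and 27.0%. Slc7a1, which carries cationic amino acids, rose from 27.5 ± 2.05 to 50.1 ± 2.75 CPM in wild type (log2 0.87 ± 0.09, edgeR adjusted p = 1.2e-09). Slc3a2, the heavy chain of several transporters, rose from 62.5 ± 2.98 to 106.4 ± 8.95 CPM (log2 0.77 ± 0.08), Slc38a2, the neutral amino acid transporter SNAT2, from 60.2 ± 2.99 to 106.3 ± 25.8 CPM (0.82 ± 0.11), and Slc7a5, the leucine carrier LAT1, from 2.97 ± 0.98 to 7.59 ± 2.70 CPM (1.35 ± 0.26). Slc7a3, another cationic amino acid carrier, was lower in cKO in both feeding states, by log2 differences of -0.39 when fed (adjusted p = 0.0264) and -0.41 when fasted (adjusted p = 0.0122), with an interaction of -0.03. The fed call was lost in 5 of 10 fits that left out 1 library (wild-type fed 3 and 4, cKO fed 1, 2 and 3), and the fasted call in a fit on the fasted groups alone (adjusted p = 0.0785). In fasted neurons Slc7a1 and Slc7a5 were also lower in cKO, by -0.29 and -0.88. From fasted replicates 1 and 2 alone neither passed (-0.19, adjusted p = 0.43, and -0.45, adjusted p = 0.534). The call for Slc7a5 was lost, too, without wild-type fasted replicate 3 (adjusted p = 0.0766) or 5 (0.0656). The interaction passed for Slc7a5 (-1.22, adjusted p = 0.0244), Slc7a11 (-1.59, 0.0314) and Slc3a2 (-0.33, 0.0465), and leaving out 1 library ended these calls in 3, 7 and 14 of 20 fits. From fasted replicates 1 and 2 alone none of the 3 passed (adjusted p = 0.294, 0.614 and 0.79).

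Enzymes of amino acid and one-carbon metabolism had a negative median on fasting. In wild type 2 of 10 rose (20%) and 5 fell (50%), with a median of -0.31, beside 29.6% and 31.3% of all tested genes. In cKO 2 rose (20%) and 4 fell (40%), beside 26.0% and 27.0%. Mthfd2, the mitochondrial folate enzyme, fell from 40.0 ± 3.54 to 17.93 ± 2.196 CPM in wild type (log2 -1.16 ± 0.12, edgeR adjusted p = 1.23e-09), and Pck2, the mitochondrial PEPCK, from 33.6 ± 3.30 to 13.8 ± 1.77 CPM (-1.28 ± 0.14, 4.05e-09). Shmt2, which splits serine in mitochondria, fell by 0.86 on the log2 scale, while Got1, the cytosolic aspartate aminotransferase, rose from 393.5 ± 13.3 to 665.4 ± 126.6 CPM (0.76 ± 0.08). Got1 was also higher in cKO than in wild type when fed (log2 0.37 ± 0.08, adjusted p = 0.003), with an interaction of -0.42 (adjusted p = 0.00926) that was lost from fasted replicates 1 and 2 alone (-0.10, adjusted p = 0.338). Mthfd2 was higher in cKO when fasted (log2 0.45, adjusted p = 0.00804), with an interaction of 0.49 (adjusted p = 0.0347). From fasted replicates 3 to 5 alone these were 0.22 (adjusted p = 0.237) and 0.26 (0.236). The first was also lost in a fit on the fasted groups alone (0.0518) and the second in 8 of 20 fits that left out 1 library.

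The aminoacyl-tRNA synthetases load amino acids onto tRNAs. With the tRNA exporter Xpot they gave 3 rises (23.1%) and 6 falls (46.2%) among 13 ATF4 targets in wild type. Over all tested genes 29.6% rose and 31.3% fell there. In cKO there were 4 rises (30.8%) and 3 falls (23.1%), beside 26.0% and 27.0%. Library totals alone gave counts of 0 and 8 for wild type, 1 and 5 for cKO, and the medians turned from 0.01 to -0.25 and from 0.08 to -0.11. Mars fell from 35.4 ± 3.68 to 15.8 ± 2.22 CPM in wild type (log2 -1.16 ± 0.13, edgeR adjusted p = 8.56e-09), and Yars and Wars fell by 0.67 and 0.87 on the log2 scale. Eprs rose by 0.39 (adjusted p = 2.04e-06) but by 0.12 with library totals alone (adjusted p = 0.06). Among 8 synthetases not usually listed as ATF4 targets 2 rose and 2 fell in each genotype (25% each), near the shares of all tested genes. In cKO the fall of Dars (log2 -0.20) was lost from fasted replicates 3 to 5 alone (-0.11, edgeR adjusted p = 0.118). In wild type Rars and Hars rose by log2 0.52 and 0.37, and Farsb and Dars fell, by log2 -0.49 each. Scaled by library totals Hars no longer passed (0.11, adjusted p = 0.0849). Of the promoters available for these 2 lists, 5 of 9 among the targets and 0 of 5 among the others held the element printed above. Over all genes with a promoter the share was 4.51%, so 0 of 5 does not set the others apart from it. The interaction passed for Aars, Tars and Xpot, at 0.53, 0.63 and 0.52 on the log2 scale, and their wild-type fasting values were -0.58, -0.55 and -0.44. When fed, Aars and Tars were lower in cKO (log2 -0.28 and -0.32, adjusted p = 0.0372 and 0.0287), and each call was lost in 7 of 10 fits that left out 1 library. When fasted, Nars, Tars and Xpot were higher in cKO (log2 0.22, 0.31 and 0.39), of which Nars was lost in 1, Tars in 4 and Xpot in 0 of 10 such fits. Nars was also lost from replicates 3 to 5 alone (adjusted p = 0.0529), Tars from replicates 1 and 2 alone (0.105), and both in a fit on the fasted groups alone (0.0986 and 0.125). Dars and Farsb were higher in cKO when fasted (log2 0.25 and 0.21), with interactions of 0.29 and 0.25. These 4 calls were lost from fasted replicates 1 and 2 alone (adjusted p from 0.108 to 0.556), and both fasted calls in a fit on the fasted groups alone (0.0644 and 0.0732). The Farsb interaction was also lost in 11 of 20 fits that left out 1 library.

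The target list for signalling, growth and redox control also held relatives of Trib3 and Sesn2, which are not established ATF4 targets. Of its 15 tested genes, 5 rose (33.3%) and 7 fell (46.7%) in wild type, beside 29.6% and 31.3% of all tested genes. In cKO 4 rose (26.7%) and 5 fell (33.3%), beside 26.0% and 27.0%. Trib1, a pseudokinase related to Trib3, rose from 2.43 ± 0.446 to 11.3 ± 1.98 CPM in wild type (log2 2.21 ± 0.17, edgeR adjusted p = 1.27e-11). It was higher in cKO than in wild type when fed (log2 1.89 ± 0.17, adjusted p = 7.26e-09), and the interaction was -1.99 ± 0.24. Sesn1, a sestrin like Sesn2, rose from 73.4 ± 6.37 to 158.5 ± 32.2 CPM (log2 1.11 ± 0.11, adjusted p = 1.23e-09), whereas Sesn3 fell from 20.8 ± 2.65 to 11.3 ± 1.91 CPM (-0.88 ± 0.14), so the 3 sestrins did not move in 1 direction. Trib2, another Trib3 relative, fell by log2 -0.998 (adjusted p = 0.000222). Sesn1 was higher in cKO when fed (log2 0.57 ± 0.11, adjusted p = 0.000877), and its fasting response was smaller in cKO (interaction -0.88 ± 0.16, adjusted p = 0.000237). Its fasted difference of -0.31 (adjusted p = 0.0447) was lost in 7 of 10 fits that left out 1 library and was -0.06 from replicates 1 and 2 alone. Ero1l, an oxidase of the endoplasmic reticulum, was lower in cKO when fed (log2 -0.20, adjusted p = 0.0437), a call lost in 10 of 10 such fits. When fasted, 3 of the 15 genes were higher in cKO (20%) and 2 lower (13.3%), beside 11.5% and 8.84% of all tested genes. The interaction was positive for 4 (Vegfa, Chac2, Vldlr and Ero1l, from 0.33 to 1.54). It was negative for 4 (Trib1, Sesn1, Ddit4 and Map1lc3b, from -1.99 to -0.21). These are 26.7% each, beside 8.87% and 8.44% of all tested genes.

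The unfolded protein response arms outside ATF4, those of IRE1-XBP1 and ATF6 with their chaperones, mostly rose. In wild type 8 of 11 rose (72.7%) and 1 fell (9.09%), with a median of 0.53, beside 29.6% and 31.3% of all tested genes. In cKO 10 rose (90.9%) and 0 fell, with a median of 0.74, beside 26.0% and 27.0%. DESeq2 also called 0 falls in cKO, and at an unadjusted p under 0.05 edgeR gave 0. Scaled by library totals, 6 rose and 3 fell in the wild-type comparison, and 9 and 1 did in cKO. Dnajb9, a chaperone partner of BiP, rose from 113.2 ± 6.74 to 316.9 ± 19.6 CPM in wild type (log2 1.49 ± 0.06, edgeR adjusted p = 4.74e-18), Atf6 from 17.3 ± 1.44 to 46.1 ± 5.41 CPM (1.41 ± 0.11), Hspa5, which encodes BiP, from 1135 ± 40.0 to 2025 ± 307.5 CPM (0.83 ± 0.07), and Xbp1 from 300.4 ± 12.9 to 435.1 ± 45.1 CPM (0.53 ± 0.06). In fed neurons 1 gene of the list, the chaperone gene Sdf2l1, was lower in cKO (log2 -0.29, adjusted p = 0.0331), a call lost in 7 of 10 fits that left out 1 library. In fasted neurons 6 of the 11 genes were higher in cKO (54.5%) and 1 was lower (9.09%), beside 11.5% and 8.84% of all tested genes. Hsp90b1, Dnajc3, Pdia4, Sdf2l1 and Edem1 were higher by log2 0.21 to 0.70 (edgeR adjusted p from 3.87e-05 to 0.00748). Fits that left out 1 library are not given for these. Atf6 was lower (log2 -0.30, adjusted p = 0.0371) and Xbp1 higher (0.17, 0.0356). Each of these 2 calls was lost in 6 of 10 fits that left out 1 library and in a fit on the fasted groups alone (0.0775 and 0.156). The Xbp1 call was also lost from replicates 3 to 5 alone (log2 0.125, adjusted p = 0.064) and with upper-quartile normalization (0.105). The Atf6 call was also lost from replicates 1 and 2 alone (0.315), with no filter (0.0536) and with library totals (0.065). The interaction was positive for 3 of the 11 genes (27.3%) and negative for 1 (9.09%), beside 8.87% and 8.44% of all tested genes. The negative one was Atf6, at -0.53 (edgeR adjusted p = 0.0126), and it was lost from fasted replicates 1 and 2 alone (0.0827). Of these promoters 0 of 10 held the element searched for, beside 4.51% of all genes with a promoter, so this 0 does not set the list apart.

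**Figure D4:**
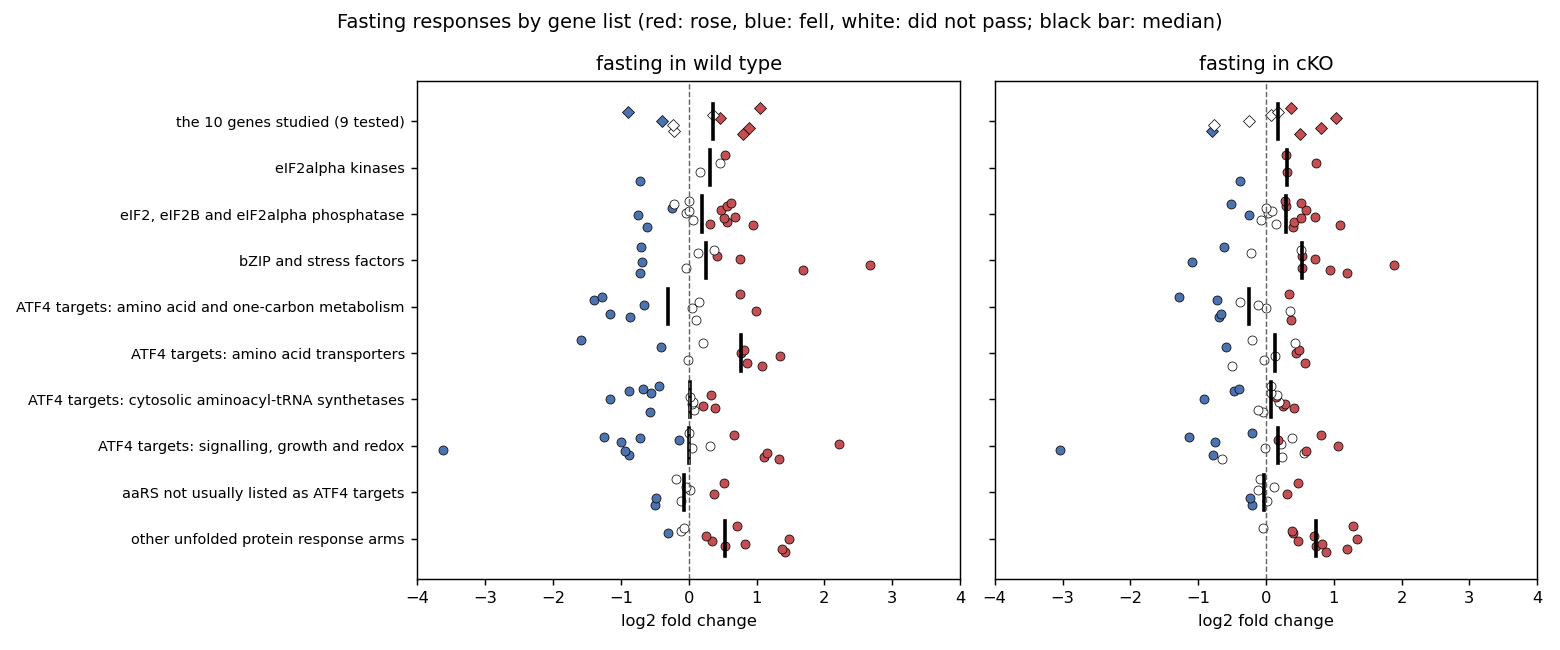
Log2 fold change on fasting (x axis) of each tested gene in wild type and cKO by list, with diamonds for the 9 genes studied, circles for list genes, red for rose, blue for fell, white for did not pass and a black bar for the list median. The other unfolded protein response arms lie mostly to the right in both panels, and the ATF4 target lists spread to both sides; with library totals alone the medians of the initiation factor, bZIP, synthetase and signalling lists in wild type turn negative.

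Genes with a pattern like that of Atf4 were sought by the correlation of log2 CPM over the 20 libraries. The 5 highest were Bnip3 (Pearson r = 0.963), Vgf (0.96), Fam107b (0.959), Rab3ip (0.959) and Mt2 (0.958). The libraries fall into fed and fasted sets, which these genes share, so r describes mainly the group means. After the group means were removed, the 5 highest were Rcor2 (0.831), Gps2 (0.811), Marveld2 (0.763), Bzw2 (0.75) and Mss51 (0.743), and Rcor2, Marveld2 and Mss51 were near 1 or 2 CPM. Among the 9 tested genes the deviations from the group mean of Atf4 and Ddit3 had r = 0.205 over 20 libraries, those of Atf4 and Asns 0.134. The highest pairs were Ddit3 and Trib3 (0.672), Psat1 and Sesn2 (0.665) and Asns and Ppp1r15a (0.641), and the lowest was Trib3 and Ppp1r15a (-0.369). Fasted replicates 1 and 2 were low for both Asns and Ppp1r15a in wild type. For Trib3 the same measures gave Kmt2a (0.742), Adcy6 (0.706), Cul9 (0.698), Nynrin (0.676) and Zswim4 (0.669), and after removal of the group means Olfr920 (0.751), Phf11c (0.727), Hdac5 (0.72), Zxdc (0.719) and Spata24 (0.717). Trib3 had at most 20 counts in a library, so these rest on few reads. All of these values share libraries and depth and are given as descriptions.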

How the data were processed

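RNA of 20 libraries (4 groups of 5) was made into cDNA with SMART-seq v4, amplified for 15 cycles and finished with Nextera XT, per the labels' protocols. Per the submitters' processing notes, Trimmomatic 0.36, HISAT2 2.1.0, featureCounts of Subread 1.6.2 and DESeq2 1.20.0 were used with GRCm38 (mm10). Neither annotation nor strand setting is named there. The authors deposited raw read counts per gene, which were used, and a normalized table, which was not used here. Tests used edgeR 4.0.16 (R 4.3.3) with TMM, the filter on low counts (minimum count 10, total 15), 4 group means over all libraries, the quasi-likelihood test and Benjamini-Hochberg adjustment over 13237 genes, with calls at an adjusted p under 0.05. CPM are TMM-scaled and given as mean ± SD, and fold changes as log2 ± SE. The test was checked on simulated counts before use.

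Of the table's names, 22063 (95.4%) matched GENCODE M21 on GRCm38, which gave coordinates and exon lengths. Promoters were RefSeq's. The named genes were the 10 studied, the 4 kinases, up to 4 genes per list with the smallest p for fasting in wild type and, where a list had 3 or fewer calls, all of these. Where a list had more calls between genotypes, some of its other called genes were named to show both directions. For likeness, the 5 genes with the highest r with Atf4 and with Trib3 were named, without numbered gene models. Marker genes of other cells were named after their values were seen. The 10 genes and the lists were chosen with earlier results of these data known. Alternatives were other normalizations, filters, DESeq2 1.42.0, a robust fit, a replicate block, GC and length offsets, leaving out libraries, fasted replicates 1 and 2 or 3 to 5 alone, and the 2 groups of a comparison alone. Library totals alone were added after seeing that the TMM factors differed between fed and fasted libraries.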

Additional observations from a re-analysis of the deposited data

Results flagged for a closer look

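Among the 40 groups of 5 libraries (10 genes in 4 groups), 4 held a library whose gap to its nearest neighbour was a large part of the group's whole range (Dixon's critical value 0.71). Chance flags about 1 in 20 such groups. Atf4 in cKO fed replicate 4 was 88.1 CPM, below the other libraries at 102 to 107. Ppp1r15a in cKO fed replicate 5 was 22.7 CPM, below 29.4 to 31.7. Chac1 in cKO fasted replicate 5 was 19.5 CPM, above 10.9 to 11.9. Phgdh in cKO fasted replicate 3 was 0.348 CPM, below 0.75 to 0.836, which is a difference of a few counts.

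The fasting response differed between genotypes for 3 genes by the interaction term of edgeR. The log2 difference (cKO response minus wild-type response) was -0.3 for Atf4, 0.582 for Psat1 and -0.679 for Ppp1r15a. For Atf4 and Psat1 it did not pass in 11 and 10 of 20 fits that left out 1 library.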

How the results depend on the processing

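No rise or fall called on fasting, and no call in fed cKO against wild type, changed direction in any fit run. DESeq2, DESeq2 size factors in edgeR, the robust fit and the filter at 1 CPM kept all 45 values of the 9 tested genes in direction and call. The fit with a replicate block changed 1 of 45 calls: Asns fell in cKO (log2 -0.256, adjusted p = 0.0163), so that 2 genes fell there instead of 1. Among the list genes named, the block ended the Eif2a interaction (adjusted p = 0.0513) and the fed difference of Ero1l (0.0586). The deviations of libraries with the same number had r from -0.045 to 0.0368 in the other comparisons. Between the fasted genotypes all 5 pairs were positive, from 0.0221 to 0.131, but not every one was above 0.1, so the numbers were not taken as pairs. The cut of 0.1 was a choice, and whether same-numbered fasted libraries were prepared together was not tested. The cause of the changes below was not tested.

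For fasting in wild type, 1 gene, Asns, fell with GC and length offsets and from fasted replicates 1 and 2 alone, where Sesn2 fell too in the reported fit. For fasting in cKO, 1 fell with GC and length offsets, but it was Asns and not Atf5. The same swap was seen from fasted replicates 1 and 2 alone and from replicates 3 to 5 alone. With upper-quartile normalization, library totals, no filter and a fit on the 2 groups alone, 2 fell. In fed neurons 1 gene was higher in cKO with library totals, and 2 were lower in a fit on the 2 groups. In fasted neurons 1 was higher from replicates 1 and 2 alone, and 1 was lower from replicates 3 to 5 alone. For the interaction, 0 were positive with upper-quartile normalization, and 1 was negative with library totals, no filter or GC and length offsets, and 0 from fasted replicates 1 and 2 alone. Leaving out 1 library gave 4 to 5 rises and 1 to 2 falls in wild type, 3 to 4 and 0 to 1 in cKO, 1 to 2 and 1 to 2 in fed, 0 to 0 and 0 to 1 in fasted neurons, and 0 to 1 and 1 to 2 for the interaction.

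Signs turned only for values that did not pass. Library totals gave log2 -0.113 for Chac1, -0.0127 for Sesn2 and -0.0584 for Slc7a5 on fasting in cKO, -0.093 for Eif2ak2 on fasting in wild type, and 0.0214 for Ddit3 and 0.00549 for Psat1 in fasted cKO against wild type. Fasted replicates 1 and 2 alone gave 0.077 for Trib3 on fasting in wild type, -0.117 for Chac1 in cKO, and, in fasted cKO against wild type, 0.248 for Atf5, 0.0155 for Ddit3, -0.166 for Sesn2 and 0.0998 for Ppp1r15a. GC and length offsets gave -0.00993 for Ddit3 in fed and 0.00985 for Atf5 in fasted cKO against wild type. Atf4 in fasted cKO against wild type was -0.0193 with upper-quartile normalization and -0.127 from replicates 3 to 5 alone. Leaving out 1 library gave -0.112 to 0.177 for Chac1 and -0.0445 to 0.428 for Sesn2 on fasting in cKO, and -0.382 to 0.109 for Trib3 and -0.00659 to 0.185 for Chac1 in the fed comparison. In the fasted comparison it gave -0.0302 to 0.062 for Atf4, -0.251 to 0.196 for Atf5, -0.0362 to 0.0146 for Ddit3, -0.0943 to 0.0376 for Psat1 and -0.0736 to 0.291 for Sesn2. Depth limits Trib3 and Phgdh, with at most 20 and 18 counts per library.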
